A study of Mus musculus with 42 samples.

Results

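Ribosome-bound RNA of the proximal tubule 10 days after obstruction of a ureter was set against the same fraction of contralateral kidneys. The members were the 14 libraries whose labels give this fraction and either of those states, out of 42 libraries in the series. The day 10 group held 7 libraries, 4 from males and 3 from females, and the contralateral group likewise held 4 from males and 3 from females. All came from cortex of kidneys of mice aged 12 weeks, and the contralateral kidney is the unoperated side of an obstructed animal, so no group is from an unoperated mouse. The RNA was bound to anti-GFP beads, and the strain, the transgene with its promoter, any pooling of animals and the day of the contralateral kidneys are not given in the sources used here. The labels do not say that replicates were separate animals, so the p-values measure only the spread between these libraries, which may be technical. A further 7 libraries of the same fraction at day 5 and 14 libraries labelled total kidney (Total) at day 10 and from contralateral kidneys were used for comparison, and the labels do not say whether Total is the part left over by the beads.

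The proximal tubule (PT) reabsorbs most of the filtered glucose, phosphate, amino acids, bicarbonate and protein, makes glucose and is fuelled mainly by fatty acids. Obstruction of the ureter is a standard model in which urine pressure injures tubules, leukocytes enter and scar tissue forms, while the other kidney takes over the work. In translating ribosome affinity purification a ribosomal protein that carries GFP is made in a chosen cell type, and beads against GFP collect its ribosomes with the messenger RNA they hold.

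Levels are CPM, the counts of a gene relative to the total of its library, with library sizes scaled by the trimmed mean of M-values (TMM). Where 3 values stand for a group they are the lowest, the median and the highest of its 7 libraries. Log2 changes are day 10 over contralateral with the sexes weighted equally. The value after ± a log2 change or difference is an approximate standard error. It is the size of the change divided by the square root of the F statistic of its test. For genes near 0 in a state it can be too small. A gene is said to have risen or fallen where its p from the quasi-likelihood test of edgeR, after Benjamini-Hochberg adjustment, was under 0.05 and its change at least 2-fold. Of 14932 genes tested, 4732 (31.7%) changed, of which 2942 (19.7% of the genes tested) rose and 1790 (12% of the genes tested) fell. The libraries of the states did not overlap for 2006 genes that were higher (13.4%) and 1360 that were lower (9.11%) at day 10. The median log2 change of all tested genes was 0.05, and each gene list below should be read against that value and against those shares. With library size as the only scaling the median moved by 0.437 to 0.49 and 82.9% of the calls were higher, against 62.2% with TMM, so that changes here are relative to the bulk of the transcripts. List counts and medians cover only members that passed a filter on low counts. A gene near 0 in contralateral kidneys passes it only if it is higher in obstructed kidneys, which favours rises.

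The libraries held 13370922 to 43640760 counts at day 10 and 15478053 to 28083403 counts in contralateral kidneys, and 17569 to 19453 against 16853 to 17555 genes were detected. Lars2, whose symbol takes a varying share of the reads, ranged from 2251 to 39410 CPM at day 10 and from 3050 to 17630 CPM in contralateral kidneys. The libraries were split by it, and some groups of sex and state were then not replicated within a side. Within the 4 day 10 and 4 contralateral libraries of high Lars2, 2598 genes rose and 1542 fell, and within the 3 and 3 libraries of low Lars2, 2713 rose and 2001 fell. The summed level of 12 defining proximal tubule markers was 2155 to 11576 CPM at day 10 against 20717 to 30957 CPM in contralateral kidneys, and all 12 fell (median log2 change -2.39). Fewer proximal tubule cells and less of a transcript per cell cannot be told apart in bulk samples, and this holds for every change reported here.

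Some transcripts gained or lost a large share of all reads. Read counts also grow with transcript length, so this is a view of library content and not of molar level. Spp1, the secreted phosphoprotein osteopontin, gained most, with 10860, 27930 and 53840 CPM at day 10 against 417, 881 and 5140 CPM in contralateral kidneys (log2 change 4.22 ± 0.27, edgeR adjusted p = 6.63e-11). The states did not overlap, and per length Spp1 averaged 19970 ± 10190 RPKM at day 10 and 1023 ± 958 RPKM in contralateral kidneys (SD, n = 7 each). Gpx3, the extracellular glutathione peroxidase that the proximal tubule secretes into plasma, lost most, with 26140, 30170 and 80140 CPM at day 10 against 107500, 153400 and 179800 CPM in contralateral kidneys (log2 change -1.87 ± 0.26, edgeR adjusted p = 4.07e-06). Its libraries did not overlap either, and per length it averaged 25340 ± 9385 RPKM at day 10 and 67160 ± 7496 RPKM in contralateral kidneys (SD, n = 7 each). The 10 genes of the largest gain together took 2.71% to 7.04% of the counts at day 10 against 0.235% to 0.608% in contralateral kidneys. The 10 genes of the largest loss took 5.11% to 10.8% at day 10 against 14.5% to 20.1% in contralateral kidneys.

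After Spp1 the gains were led by Cd74, the invariant chain of class II antigen presentation, at 1667, 2377 and 5147 CPM at day 10 against 49.8, 68.5 and 188 CPM in contralateral kidneys (log2 change 5.18 ± 0.38, edgeR adjusted p = 5.82e-10). Every day 10 library lay above every contralateral one. Tmem176b, a membrane protein of endosomes, had 2163, 3596 and 3879 CPM at day 10 against 693, 1210 and 2082 CPM in contralateral kidneys (log2 change 1.61 ± 0.17), and Havcr1, the injury receptor known as KIM-1, had 531, 1176 and 1382 CPM at day 10 against 8.13, 11.1 and 16.2 CPM in contralateral kidneys (log2 change 6.54 ± 0.26). Neither showed overlap. The other 6 were the annexins Anxa5 (3.38 ± 0.21) and Anxa2 (5.92 ± 0.24), the class I light chain B2m (1.46 ± 0.15), the transcriptional regulator Tsc22d1 (2.12 ± 0.17), the actin-sequestering thymosin Tmsb4x (2.85 ± 0.22) and the surface antigen Ly6e (3.79 ± 0.26). Annexins bind membranes in a calcium-dependent way. Anxa2 stood at 591, 841 and 1069 CPM at day 10 against 7.73, 13.5 and 19.8 CPM in contralateral kidneys, again without overlap.

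Most of the other losses were those of metabolic enzymes. Gatm, which makes the creatine precursor guanidinoacetate, had 275, 363 and 1175 CPM at day 10 against 3754, 7610 and 8711 CPM in contralateral kidneys (log2 change -3.59 ± 0.32, edgeR adjusted p = 9.51e-09), and the states did not overlap. Pck1, the gluconeogenic carboxykinase, had 81.4, 341 and 682 CPM at day 10 against 1796, 2683 and 6995 CPM in contralateral kidneys (log2 change -3.34 ± 0.31), and its lowest contralateral library was above its highest day 10 library. The aldehyde reductase Akr1a1 (-1.60 ± 0.24), the inositol oxygenase Miox (-2.62 ± 0.37), the gluconeogenic phosphatase Fbp1 (-2.64 ± 0.28) and Hrsp12 (-1.29 ± 0.19) fell without overlap. Keg1 (-1.47 ± 0.29) and the sodium pump subunit Fxyd2 (-1.17 ± 0.20) fell too, with libraries that overlapped.

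**Figure D1:**
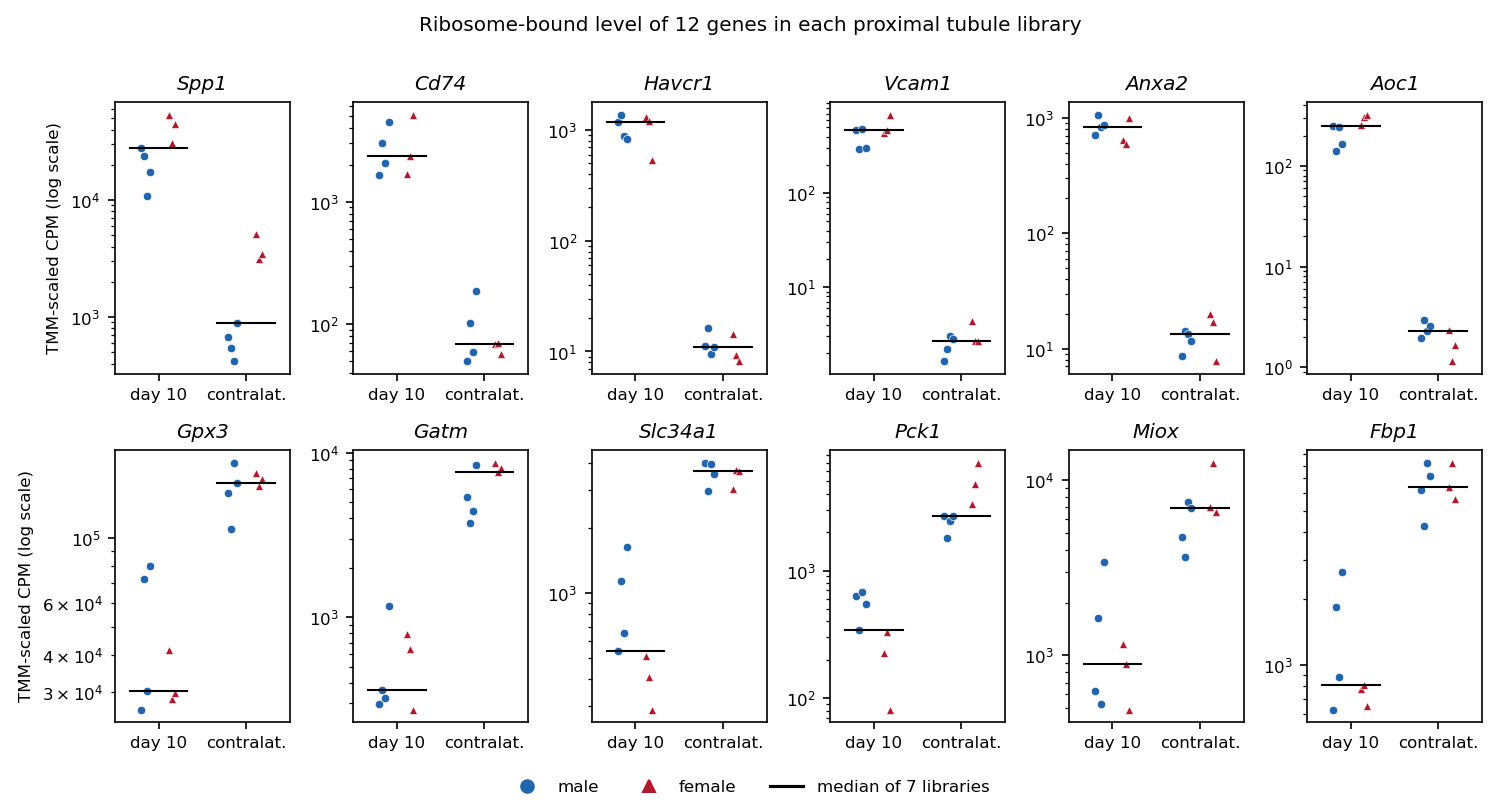
TMM-scaled CPM, on log axes, of 12 genes in each proximal tubule library, with day 10 left of contralateral. Each circle (male) or triangle (female) is a library and the bar is the median of 7. The states do not overlap in any of the 12 genes, and Spp1 lies higher in contralateral females (3140 to 5140 CPM) than in contralateral males (417 to 881 CPM).

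Of genes that reached 5 CPM in a sex and whose states did not overlap in either sex, the 15 of the largest fitted log2 rise were taken. The choice thus used the change and the overlap, and the values here are a description. Anxa8, an annexin, stood at 0.362, 4.51 and 22.1 CPM at day 10 against 0, 0 and 0.14 CPM in contralateral kidneys. Its fitted change rests on 3 counts in contralateral kidneys, and its ratio was 234-fold, with a 95% counting interval of 79.8 to 1137. The neutrophil chemokine Cxcl5 stood at 7.41, 9.90 and 33.9 CPM at day 10 against 0, 0 and 0.093 CPM in contralateral kidneys (log2 change 8.36 ± 0.45, edgeR adjusted p = 5.25e-12). Both were at 0 in most contralateral libraries. Rgs4, which shortens signalling by G proteins, had 6.6, 16.6 and 57.2 CPM at day 10 against 0, 0.134 and 0.229 CPM in contralateral kidneys (log2 change 7.60 ± 0.52). Next came Serpina10 (7.59 ± 0.28), an inhibitor of coagulation factor X that is known from liver, and the transcription factor Runx1 (7.35 ± 0.26). The leukocyte adhesion receptor Vcam1 (7.34 ± 0.24), the metalloproteinase inhibitor Timp1 (7.29 ± 0.29), the hyaluronan receptor Cd44 (7.25 ± 0.36) and the hexokinase Hk2 (7.14 ± 0.57) followed. Medag (7.11 ± 0.39), Fst (7.06 ± 1.25), Adgra1 (7.01 ± 0.44), Il1rn (6.99 ± 0.42), Mapk11 (6.97 ± 0.31) and Traf1 (6.97 ± 0.30) completed the 15. Cxcl5, Hk2, Medag and Fst also held few counts in contralateral kidneys. The size and rank of their changes thus depend on the small prior count that the fit adds. Il1rn is the antagonist of the interleukin 1 receptor, Mapk11 is a p38 kinase and Traf1 is an adapter of tumour necrosis factor receptors. Fst, the activin-binding follistatin, was spread widely at day 10, at 0.259, 0.936 and 49.2 CPM at day 10 against 0, 0 and 0.181 CPM in contralateral kidneys.

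The 15 largest fitted falls were chosen likewise and were led by the noncoding Gm11513, at 0.0369, 0.0475 and 0.155 CPM at day 10 against 2.62, 4.22 and 8.24 CPM in contralateral kidneys (log2 change -6.14 ± 0.38, edgeR adjusted p = 1.78e-10). Pvalb, parvalbumin, a marker of the distal convoluted tubule, stood at 0, 0.0776 and 0.203 CPM at day 10 against 1.30, 5.68 and 8.48 CPM in contralateral kidneys (log2 change -5.93 ± 0.58). The cadherin Fat2 (-5.09 ± 0.50), the thyroxine carrier Ttr (-5.00 ± 0.57), the noncoding Gm13412 (-4.78 ± 0.60) and Bhmt (-4.74 ± 0.62), which methylates homocysteine, came next. Ttr was at 0.605, 7.16 and 51.1 CPM at day 10 against 108, 199.7 and 465 CPM in contralateral kidneys. Alb, serum albumin, which is made mainly by liver, stood at 0.0406, 0.181 and 0.504 CPM at day 10 against 0.823, 3.86 and 13.0 CPM in contralateral kidneys (log2 change -4.56 ± 0.50). Pde6a (-4.43 ± 0.52), C030005K06Rik (-4.35 ± 0.38), the cytochrome Cyp2d12 (-4.22 ± 0.57), the carboxylesterase Ces1e (-4.15 ± 0.35), March10 (-4.04 ± 0.44), Pik3c2g (-4.00 ± 0.42), the retinoid receptor Rxrg (-3.94 ± 0.49) and the brush border dipeptidase Dpep1 (-3.94 ± 0.47) made up the rest. Cyp2d12 and Ces1e belong to families of close copies, and their read assignment is uncertain.

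Promoter sequence was looked up for these genes in RefSeq windows of build GRCm38.p6, from 250 bases before to 50 bases after the start of each gene. A window was found for 20 of the 30 genes. Motifs of 3 factor families were searched on both strands, namely AP-1 as TGACTCA, NF-kB as GGANTTTCC and HNF4 as CAAAGTCCA, and matches of different motifs overlapped in 1 of all 27025 windows. The first pair are families of the injury response and HNF4 is a factor of the mature tubule. Only the window of Il1rn, among 11 rises, held any of them, and none of 9 falls did, so it is shown, the match in capitals.
Il1rn promoter (chr2:24336610-24336909, plus strand): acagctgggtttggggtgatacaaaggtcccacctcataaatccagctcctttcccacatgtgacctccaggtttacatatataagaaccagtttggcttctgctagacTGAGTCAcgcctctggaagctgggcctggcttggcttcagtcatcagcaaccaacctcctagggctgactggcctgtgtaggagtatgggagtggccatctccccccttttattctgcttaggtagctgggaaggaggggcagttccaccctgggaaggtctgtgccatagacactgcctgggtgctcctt
The Il1rn match is the AP-1 motif read on the opposite strand and begins 141 bases before the start. Il1rn rose, at 52.0, 79.5 and 228 CPM at day 10 against 0.455, 0.734 and 1.98 CPM in contralateral kidneys.

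Over all genes with a window, AP-1 letters were in 5.69% of the 2110 that rose and in 5.3% of the 1152 that fell, against 3.74% of all 10588 tested genes and 5.17% of all windows. NF-kB letters were in 2.46% of the genes that rose and 0.955% of those that fell, against 1.3% of the tested genes and 1.23% of all windows. HNF4 letters were in 0.616% of the genes that rose and 0.868% of those that fell, against 0.472% and 0.477%. These are descriptions of letters, without a test, and a match is not a site of binding. The stretches below show a match with its surroundings, each read on the strand of its motif, in genes that are described by their levels elsewhere in the text.
Anxa2, higher (chr9:69453578-69453604, minus strand): ccctgctgggTGACTCAtccaacttgg
Cldn4, higher (chr5:134947158-134947184, minus strand): tctaggctggTGACTCAgtgtctgtgt
B2m, higher (chr2:122147551-122147579, minus strand): ggttacaaagGGACTTTCCcattttcagt
Slc26a4, lower (chr12:31560078-31560106, plus strand): gaaggacacaGGATTTTCCccacgaatct
Rpl22l1, higher (chr3:28805274-28805302, plus strand): tgtaagtttgCAAAGTCCAcagccagagc
Hpd, lower (chr5:123182846-123182872, minus strand): tgcccagagcTGACTCAggggttccca
Treh, lower (chr9:44673152-44673180, minus strand): ccaggtcagcCAAAGTCCAggctatgagg
The capitals mark AP-1 in Anxa2, Cldn4 and Hpd, NF-kB in B2m and Slc26a4 and HNF4 in Rpl22l1 and Treh. Slc26a4, an anion exchanger of the collecting duct, stood at 0.259, 0.406 and 0.699 CPM at day 10 against 1.69, 2.23 and 3.20 CPM in contralateral kidneys (log2 change -2.42 ± 0.29). Of the named genes that changed, 258 were looked up and 182 have a window. AP-1 letters were in 5 of the 97 that rose and 6 of the 85 that fell. NF-kB letters were in 1 that rose and 1 that fell, and HNF4 letters likewise in 1 and 1, so that the letters of each stood before genes of both directions. For Cldn4 1 of its 2 matches is shown. A chromosome was left out when the matches of named genes were collected, while its genes stayed in the totals. The counts of named genes with letters may therefore be too low.

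The tasks of the proximal tubule were taken in turn, beginning with the carriers of its first segments (S1 and S2). Of 20 carriers, 19 fell and none rose, with a median log2 change of -2.11 against 0.05 for all genes. Slc22a8, the organic anion transporter OAT3, had 9.55, 33 and 102 CPM at day 10 against 332, 602 and 995 CPM in contralateral kidneys (log2 change -3.87 ± 0.46, edgeR adjusted p = 9.94e-07). Slc34a3, a phosphate carrier, had 2.62, 8.17 and 19.6 CPM at day 10 against 49.98000, 104 and 123 CPM in contralateral kidneys (log2 change -3.40 ± 0.37), and Slc6a19, which takes up neutral amino acids, had 18, 37.9 and 46.6 CPM at day 10 against 180.2, 270.5 and 407 CPM in contralateral kidneys (log2 change -3.03 ± 0.23). In all 3 the states did not overlap. Slc34a1, the main phosphate carrier, fell to 289.6, 541 and 1626 CPM at day 10 against 2978, 3675 and 4009 CPM in contralateral kidneys (log2 change -2.49 ± 0.23). The luminal carriers of glucose, Slc5a2 (-2.41 ± 0.24), and of lactate, Slc5a12 (-2.38 ± 0.19), fell as well. Slc3a1, the heavy subunit of the cystine carrier, was the member without a call (log2 change -0.30 ± 0.16), while its light subunit Slc7a9 fell (log2 change -1.55 ± 0.21).

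The last, straight segment of the tubule (S3) was represented by 10 genes, of which 4 fell and 1 rose, with a median of -0.51. Under scaling by library size alone 3 fell and 2 rose (median -0.07). Slc1a1, a glutamate carrier, stood at 22.9, 50.1 and 64.9 CPM at day 10 against 89.8, 134 and 159.8 CPM in contralateral kidneys (log2 change -1.50 ± 0.15, edgeR adjusted p = 5.61e-08), without overlap. Slc7a13 (-1.64 ± 0.31), an acidic amino acid carrier, and Slc22a30 (-2.51 ± 0.31) fell with overlap, while each sex was without overlap. Slc7a13 had 51.0 to 200 CPM in day 10 males against 249.7 to 411 CPM in contralateral males, and 0.569 to 1.22 CPM in day 10 females against 2.16 to 3.05 CPM in contralateral females. Slc22a30 had 15.2 to 42.6 CPM in day 10 males against 86.1 to 157 CPM in contralateral males, and 0.36 to 0.518 CPM in day 10 females against 2.47 to 5.26 CPM in contralateral females. Both had higher levels in male libraries of either state. The lactate and nicotinate carrier Slc5a8 fell (log2 change -1.4 ± 0.28), and the glucose carrier Slc5a1 did not pass (log2 change -0.16 ± 0.31). Cyp7b1, a hydroxylase of oxysterols and steroids, passed the limit upward (log2 change 1.13 ± 0.41), and its call was lost without male day 10 replicate 4 (0.92, adjusted p = 0.0581 by edgeR), female contralateral replicate 3 (1.07, adjusted p = 0.0536 by edgeR) or female day 10 replicate 2 (0.90, adjusted p = 0.0874 by edgeR).

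At the brush border and in the endocytic apparatus most members were not called. Of 25 brush border genes 8 fell and none rose (median -0.59), and with library size as the only scaling 3 fell and 1 rose (median -0.16). Dpep1, which cleaves leukotriene D4 and dipeptides, stood at 5.43, 11.7 and 90.3 CPM at day 10 against 185, 292 and 384 CPM in contralateral kidneys (log2 change -3.94 ± 0.47, edgeR adjusted p = 1e-06), without overlap. Ggt1, which starts glutathione breakdown, stood at 95.3, 223 and 592 CPM at day 10 against 437, 904 and 1357 CPM in contralateral kidneys (log2 change -1.74 ± 0.19), and the trehalase Treh at 3.78, 29.1 and 42.7 CPM at day 10 against 31.6, 53.0 and 106 CPM in contralateral kidneys (log2 change -1.59 ± 0.23), both with overlap. Villin, Vil1 (-0.08 ± 0.13), the angiotensin-converting enzyme Ace (0.26 ± 0.25) and neprilysin, Mme (0.63 ± 0.27), were not called. Of 24 genes of receptor-mediated endocytosis 7 fell and none rose, with a median of -0.41 that became 0.03 with library size as the only scaling, where 3 fell and 1 rose. The receptors megalin, Lrp2, and cubilin, Cubn, take up filtered protein. Lrp2 stood at 60.9, 75.9 and 151 CPM at day 10 against 206, 284 and 508 CPM in contralateral kidneys (log2 change -1.92 ± 0.23) and Cubn at 15.5, 23.2 and 32.7 CPM at day 10 against 36.0, 76.1 and 157 CPM in contralateral kidneys (log2 change -1.66 ± 0.20), neither with overlap. Lrpap1, the chaperone of megalin, fell as well (log2 change -1.85 ± 0.20), and so did the endosomal chloride exchanger Clcn5 (-1.19 ± 0.13) and the neonatal Fc receptor Fcgrt (-1.16 ± 0.20). The adapter Dab2 (-0.31 ± 0.17), the clathrin heavy chain Cltc (0.02 ± 0.23) and the small GTPase Rab5a (-0.21 ± 0.13) were not called.

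**Figure D2:**
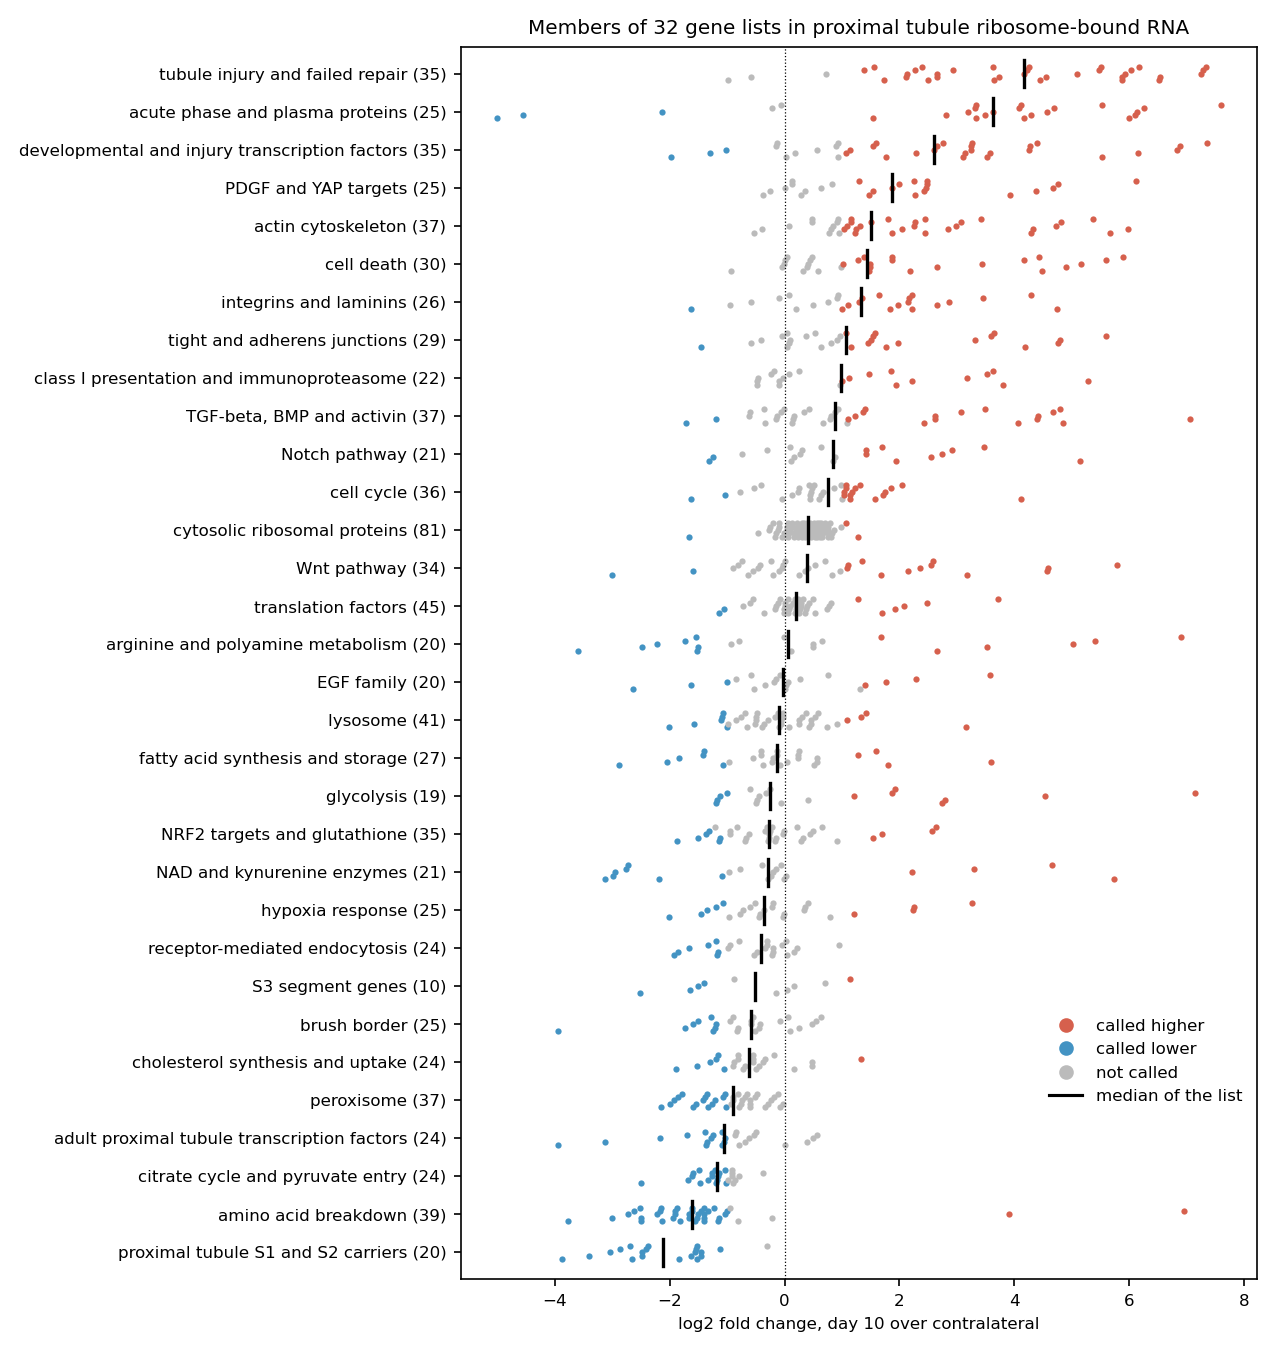
Log2 change, day 10 over contralateral, of every tested member of 32 gene lists, ordered by the median of the list (black bar), with the number of members tested in brackets. Red points rose, blue points fell and grey points were not called. The tubule injury list has the highest median (4.17) and the S1 and S2 carriers the lowest (-2.11).

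Most genes of amino acid breakdown fell. Of 39 genes of amino acid breakdown 34 fell and 2 rose (median -1.60), and 24 fell with library size as the only scaling. Gldc, which cleaves glycine in mitochondria, stood at 5.94, 15.4 and 27.2 CPM at day 10 against 113, 186 and 371 CPM in contralateral kidneys (log2 change -3.77 ± 0.29, edgeR adjusted p = 9.76e-10). The states did not overlap. Hpd, of tyrosine breakdown, fell with wide spread and overlap, at 1.10, 5.96 and 34.8 CPM at day 10 against 17.2, 52.8 and 484 CPM in contralateral kidneys (log2 change -3.01 ± 0.61). The risers were Bcat1, the cytosolic branched-chain transaminase, at 5.33, 11.3 and 39.9 CPM at day 10 against 0.2, 0.566 and 2.09 CPM in contralateral kidneys (log2 change 3.91 ± 0.48), and the tyrosine transaminase Tat. Tat was at 0 in all contralateral libraries and at 0.11 to 1.69 CPM at day 10, at least 4.33-fold higher against a floor of 3 counts in a contralateral library of mean size. Bcat1's mitochondrial counterpart Bcat2 fell (log2 change -1.16 ± 0.15). The list's median was the same with Tat at its bound.

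Of 24 genes of pyruvate entry and the citrate cycle 16 fell and none rose (median -1.17), but with library size as the only scaling 6 fell (median -0.73). Pcx, pyruvate carboxylase, stood at 20.8, 67.8 and 165 CPM at day 10 against 296, 372 and 449 CPM in contralateral kidneys (log2 change -2.49 ± 0.25, edgeR adjusted p = 4.06e-08), without overlap. Idh2, the mitochondrial isocitrate dehydrogenase that makes NADPH, fell (log2 change -1.60 ± 0.23), as did Suclg1 (-1.68 ± 0.26) and Sdhb (-1.47 ± 0.19). Citrate synthase, Cs (-0.37 ± 0.21), was not called. Peroxisomal genes, which shorten very long and branched fatty acids, fell in 16 of 37 members and rose in none (median -0.89), and in 7 with library size as the only scaling (median -0.46). Among them the thiolase Acaa1b stood at 37.1, 63.6 and 146 CPM at day 10 against 153, 241 and 785 CPM in contralateral kidneys (log2 change -2.14 ± 0.31), and its neighbour in the pathway Ehhadh fell (log2 change -1.99 ± 0.29) with overlap. The assembly factors Pex2 (-0.12 ± 0.11), Pex13 (-0.89 ± 0.11) and Pex14 (-0.70 ± 0.26) were not called.

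Glycolysis genes moved in both directions, with 7 of 19 risen and 4 fallen and a median of -0.25. With library size as the only scaling the median was 0.17, 7 rose and 0 fell. Hk2, the hexokinase typical of muscle and growing cells, stood at 2.61, 4.47 and 9.69 CPM at day 10 against 0, 0 and 0.227 CPM in contralateral kidneys (log2 change 7.14 ± 0.57, edgeR adjusted p = 1.7e-09). Pkm, the pyruvate kinase of non-liver tissue, stood at 46.1, 80.0 and 123 CPM at day 10 against 8.5, 12.5 and 16.1 CPM in contralateral kidneys (log2 change 2.79 ± 0.23). Pfkp, the platelet type of phosphofructokinase, stood at 53.5, 77.2 and 173 CPM at day 10 against 3.44, 10.3 and 33.4 CPM in contralateral kidneys (log2 change 2.75 ± 0.41). All 3 were without overlap, and Hk1 (1.87 ± 0.19) and the neuronal enolase Eno2 (4.53 ± 0.56) rose as well. The kinase Pdk1 (-1.19 ± 0.20), which restrains pyruvate entry into mitochondria, and the triose enzymes Pgk1 (-1.13 ± 0.17) and Gapdh (-1.18 ± 0.30) fell. Gapdh overlapped between the states and was not called without female contralateral replicate 1 (-0.92, adjusted p = 0.012 by edgeR). Further enzymes of the route, Tpi1 (-0.50 ± 0.15), Aldoa (-0.06 ± 0.16) and Eno1 (-0.45 ± 0.20), were not called.

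Lipid storage and synthesis had 4 of 27 genes risen and 6 fallen, with a median of -0.13 that became 0.29 with library size as the only scaling. Plin2, the coat of lipid droplets, stood at 235, 479 and 974 CPM at day 10 against 108, 146 and 198 CPM in contralateral kidneys (log2 change 1.59 ± 0.22, edgeR adjusted p = 2.89e-06), without overlap. Pparg, the receptor that drives fat storage, was at 1.07, 2.36 and 3.13 CPM at day 10 against 0, 0.0667 and 1.44 CPM in contralateral kidneys (log2 change 3.59 ± 0.61), with overlap. Fabp4, a fatty acid binding protein of fat cells, macrophages and endothelium, stood at 8.23, 17.9 and 25.7 CPM at day 10 against 2.33, 5.24 and 7.15 CPM in contralateral kidneys (log2 change 1.80 ± 0.26). Dgat2, which makes triglyceride, fell to 25.1, 31.4 and 77.0 CPM at day 10 against 115, 158 and 185 CPM in contralateral kidneys (log2 change -2.05 ± 0.20). The synthases Fasn (0.04 ± 0.16), Acaca (0.24 ± 0.22) and Acly (0.24 ± 0.23) were not called. Cholesterol synthesis and uptake had 6 of 24 fallen and 1 risen (median -0.62), and 2 fallen with library size as the only scaling (median -0.15). The riser, Sqle, squalene epoxidase, stood at 60.9, 67.3 and 110.2 CPM at day 10 against 22.9, 27.4 and 35.9 CPM in contralateral kidneys (log2 change 1.33 ± 0.15), while the decarboxylase Mvd (-1.53 ± 0.27), the sterol reductase Tm7sf2 (-1.30 ± 0.22) and the regulator Insig1 (-1.89 ± 0.52) fell with overlap.

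The kynurenine route makes NAD from tryptophan in kidney and liver. Of 21 NAD and kynurenine genes 7 fell and 4 rose, with a median of -0.28 that became 0.19 with library size as the only scaling. Acmsd, which diverts the route away from NAD, stood at 30.7, 64.6 and 148 CPM at day 10 against 430.3, 550.2 and 636 CPM in contralateral kidneys (log2 change -2.98 ± 0.27, edgeR adjusted p = 1.42e-08), without overlap, and Afmid (-2.95 ± 0.34), Kmo (-2.76 ± 0.25), Haao (-2.73 ± 0.36) and Ido2 (-3.12 ± 0.44) fell. The 4 that rose consume NAD or nicotinamide, namely the methyltransferase Nnmt (log2 change 5.73 ± 0.48), the NAD glycohydrolases Bst1 (4.65 ± 0.56) and Cd38 (2.22 ± 0.42) and the polymerase Parp14 (3.29 ± 0.25). Qprt (-0.20 ± 0.17) and Nampt (-0.28 ± 0.22), which lead into NAD, were not called.

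Arginine and polyamine genes split, with 6 of 20 risen and 7 fallen (median 0.05). Aoc1, the secreted oxidase of histamine and putrescine, stood at 140.5, 248 and 323 CPM at day 10 against 1.14, 2.31 and 2.94 CPM in contralateral kidneys (log2 change 6.89 ± 0.23, edgeR adjusted p = 9.54e-15). Arg2, the mitochondrial arginase, stood at 20.5, 38.7 and 52.5 CPM at day 10 against 0.497, 0.668 and 1.75 CPM in contralateral kidneys (log2 change 5.39 ± 0.24). Neither overlapped, and the arginine carrier Slc7a1 (3.53 ± 0.35) and the spermine oxidase Smox (2.65 ± 0.25) rose too. The proximal tubule makes arginine from citrulline by Ass1 and Asl. Ass1 stood at 171, 276 and 845 CPM at day 10 against 1234, 1870 and 2594 CPM in contralateral kidneys (log2 change -2.49 ± 0.23) and Asl at 166, 207 and 309 CPM at day 10 against 437, 636 and 869 CPM in contralateral kidneys (log2 change -1.51 ± 0.16), without overlap. Odc1, which makes putrescine, fell (log2 change -2.22 ± 0.34) with overlap. Nos2, the inducible nitric oxide synthase, held few counts, and its ratio was 29.6-fold, with a 95% counting interval of 7.94 to 249.

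Of 24 transcription factors of the adult tubule 13 fell and none rose (median -1.05). With library size as the only scaling 4 fell (median -0.60), and the summed level of the list, apart between the states with TMM, overlapped. Ppara, which governs fatty acid oxidation, stood at 18.7, 35.3 and 52.6 CPM at day 10 against 95.6, 142 and 267 CPM in contralateral kidneys (log2 change -2.16 ± 0.25, edgeR adjusted p = 2.56e-07), and Rxrg was given above. Esrra (-1.69 ± 0.35), a driver of mitochondrial genes, and its coactivator Ppargc1a (-1.28 ± 0.14) fell. Hnf4a, the factor most tied to proximal tubule maturation, stood at 164, 207 and 365 CPM at day 10 against 466, 559.8 and 613 CPM in contralateral kidneys (log2 change -1.24 ± 0.14), and the libraries did not overlap. The bile acid receptor Nr1h4 (-0.62 ± 0.15) and Hnf4g (0.0035 ± 0.24), a relative of Hnf4a, were not called.

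Of 35 factors of kidney development and injury 24 rose and 3 fell (median 2.60). Sox9, a factor of tubule progenitors, stood at 22.1, 36.2 and 177 CPM at day 10 against 0.152, 0.361 and 1.13 CPM in contralateral kidneys (log2 change 6.83 ± 0.53, edgeR adjusted p = 3.75e-09). Sox11 stood at 2.40, 11.7 and 76.5 CPM at day 10 against 0, 0.134 and 0.241 CPM in contralateral kidneys (log2 change 6.89 ± 0.82) and Runx1 at 13.9, 29.5 and 52.8 CPM at day 10 against 0.0994, 0.181 and 0.341 CPM in contralateral kidneys (log2 change 7.35 ± 0.26). In each of them the lowest day 10 library exceeded the highest contralateral one, yet day 10 libraries spread over a wide range in Sox11. Sox4 (4.26 ± 0.30), Klf4 (5.52 ± 0.37), Klf6 (3.13 ± 0.16), Myc (3.57 ± 0.43), Ets1 (4.27 ± 0.38) and the NF-kB family members Relb (4.39 ± 0.19), Nfkb2 (2.76 ± 0.20) and Bcl3 (3.53 ± 0.29) rose. The fallen ones were Etv5 (-1.98 ± 0.26), Osr1 (-1.29 ± 0.41) and Lhx1 (-1.01 ± 0.12), the last at the 2-fold limit. Lhx1 was not called without male contralateral replicate 1 (-0.99), male day 10 replicate 1 (-0.97), female contralateral replicates 2 (-0.99) and 3 (-0.9995) or female day 10 replicate 1 (-0.98). The nephron factors Pax2 (0.19 ± 0.20) and Pax8 (0.94 ± 0.18) and the mesenchymal factor Zeb2 (0.89 ± 0.17) were not called, while Zeb1 (1.14 ± 0.20) and Snai2 (2.28 ± 0.34) rose.

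Of 35 genes of tubule injury and failed repair 32 rose and none fell (median 4.17). Vcam1 stood at 298, 468 and 685 CPM at day 10 against 1.63, 2.71 and 4.42 CPM in contralateral kidneys (log2 change 7.34 ± 0.24, edgeR adjusted p = 9.54e-15), Timp1 at 15.9, 21.8 and 44.2 CPM at day 10 against 0.0667, 0.154 and 0.305 CPM in contralateral kidneys (log2 change 7.29 ± 0.29) and Cd44 at 30.3, 76.9 and 124 CPM at day 10 against 0.181, 0.625 and 0.868 CPM in contralateral kidneys (log2 change 7.25 ± 0.36). None overlapped. The keratin Krt20 stood at 31.2, 141 and 249 CPM at day 10 against 1.13, 1.53 and 3.60 CPM in contralateral kidneys (log2 change 6.18 ± 0.54), and the keratins of simple epithelium Krt8 (1.56 ± 0.21), Krt18 (2.94 ± 0.32) and Krt19 (2.64 ± 0.30) rose. The lipocalin Lcn2 stood at 16.5, 26.9 and 85.0 CPM at day 10 against 0.398, 0.566 and 0.895 CPM in contralateral kidneys (log2 change 6.04 ± 0.41). Cdh6, a cadherin of the developing tubule, rose (log2 change 5.47 ± 0.39), as did vimentin, Vim (4.45 ± 0.29), clusterin, Clu (3.64 ± 0.26), and the S100 protein S100a6 (5.87 ± 0.45). Factors addressed to leukocytes were also higher: the chemokine Ccl2 (6.51 ± 0.28) and the macrophage growth factor Csf1 (4.17 ± 0.32). The 3 that were not called were Prom1 (-0.98 ± 0.26), Itgb8 (-0.58 ± 0.24) and Krt7 (0.72 ± 0.26). Macrophage markers were also higher, with a summed level of 66.9 to 164 CPM at day 10 against 8.19 to 16.5 CPM in contralateral kidneys, and their part in the levels of these genes was not tested.

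Most genes of the actin cytoskeleton rose. Of 37 actin cytoskeleton genes 26 rose and none fell (median 1.51). The thymosin Tmsb10 stood at 69.1, 128 and 178 CPM at day 10 against 1.16, 1.76 and 2.54 CPM in contralateral kidneys (log2 change 5.98 ± 0.29, edgeR adjusted p = 1e-12). Capg, which caps actin filaments, stood at 112, 135 and 201 CPM at day 10 against 1.44, 2.47 and 6.63 CPM in contralateral kidneys (log2 change 5.66 ± 0.28), and filamin A, Flna, at 20.4, 34.2 and 65.0 CPM at day 10 against 0.646, 1.07 and 1.67 CPM in contralateral kidneys (log2 change 5.37 ± 0.31). The states were apart in all 3. Actn1 (4.29 ± 0.48), Cald1 (4.32 ± 0.32), Msn (2.44 ± 0.27) and Tpm4 (2.99 ± 0.16) rose, while the abundant Actb (0.85 ± 0.54), Cfl1 (0.78 ± 0.18) and ezrin, Ezr (0.48 ± 0.13), were not called. Many of these genes are strongly expressed by fibroblasts, pericytes and smooth muscle. Fibroblast markers summed to 37.9 to 80.9 CPM at day 10 against 3.58 to 8.92 CPM in contralateral kidneys, and pericyte and smooth muscle markers to 54.3 to 72.2 CPM at day 10 against 8.20 to 19.7 CPM in contralateral kidneys. Their part in the cytoskeletal rise was not tested.

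Integrins and laminins, the receptors and the scaffold of the basement membrane, rose in 16 of 26 members and fell in 1 (median 1.33). The fibronectin receptor subunit Itga5 stood at 1.16, 2.73 and 3.81 CPM at day 10 against 0, 0.114 and 0.229 CPM in contralateral kidneys (log2 change 4.74 ± 0.41, edgeR adjusted p = 4.68e-09), and the linker Nid1 at 4.95, 7.94 and 10.2 CPM at day 10 against 0.284, 0.72 and 1.30 CPM in contralateral kidneys (log2 change 3.46 ± 0.33). Both were without overlap. Lama3 was the exception and fell with overlap (log2 change -1.62 ± 0.26), although Lamb3 (2.17 ± 0.30), with which its protein is assembled, rose. Junction genes rose in 15 of 29 members and fell in 1 (median 1.07). The summed levels of both lists overlapped between the states, at 500.0 to 909.9 CPM at day 10 against 355 to 615 CPM in contralateral kidneys for integrins and laminins and 2057 to 2761 CPM at day 10 against 1827 to 2224 CPM in contralateral kidneys for junctions. Claudins set which ions pass between cells. Cldn3 stood at 25.1, 64.0 and 117 CPM at day 10 against 0.341, 1.12 and 1.75 CPM in contralateral kidneys (log2 change 5.60 ± 0.40) and Cldn4 at 10.5, 19.6 and 34.2 CPM at day 10 against 0.0497, 0.566 and 2.06 CPM in contralateral kidneys (log2 change 4.80 ± 0.38), both claudins of tighter epithelia. Cldn10, an ion channel-forming claudin of the tubule, fell to 99.8, 129 and 238 CPM at day 10 against 254, 341 and 585 CPM in contralateral kidneys (log2 change -1.46 ± 0.17). Cldn2 (0.08 ± 0.22), which makes the proximal tubule leaky to sodium, and the cadherins Cdh1 (0.92 ± 0.26), Cdh2 (0.63 ± 0.29) and Cdh16 (-0.04 ± 0.13) were not called.

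Signalling genes were read by ligand, receptor and target. In the TGF-beta, BMP and activin family 16 of 37 genes rose and 2 fell (median 0.87). The ligands Tgfb2, at 3.83, 8.98 and 22.5 CPM at day 10 against 0.186, 0.36 and 0.762 CPM in contralateral kidneys (log2 change 4.68 ± 0.27, edgeR adjusted p = 1.33e-11), Tgfb1 (4.40 ± 0.54), Inhba (3.07 ± 0.89) and Inhbb (4.40 ± 0.66) rose, and so did the latency proteins Ltbp1 (4.07 ± 0.63) and Ltbp2 (4.80 ± 0.51) and the receptor Tgfbr2 (1.23 ± 0.15). Bmp7, a ligand that the tubule makes and that opposes TGF-beta, fell to 12.7, 14.6 and 21.7 CPM at day 10 against 39.6, 51.2 and 67.1 CPM in contralateral kidneys (log2 change -1.71 ± 0.14), without overlap. The targets Smad7 (-0.07 ± 0.14) and Id1 (-0.61 ± 0.31) were not called. Bmp2 held few counts in contralateral kidneys, and its ratio was 37.3-fold, with a 95% counting interval of 12.5 to 183.

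PDGF ligands and targets of the mechanical regulator YAP rose in 16 of 25 members and fell in none (median 1.86). The ligands Pdgfb (2.28 ± 0.18), Pdgfa (1.87 ± 0.14) and Pdgfd (3.92 ± 0.65) rose and Pdgfc (-0.00028 ± 0.24) was not called. Ankrd1, a YAP target of stretched muscle, stood at 14.3, 41.5 and 75.8 CPM at day 10 against 0.257, 0.511 and 1.45 CPM in contralateral kidneys (log2 change 6.11 ± 0.35, edgeR adjusted p = 1.38e-11), without overlap. The matricellular targets Ctgf (2.47 ± 0.58) and Cyr61 (2.42 ± 0.36) and the kinase receptor Axl (4.38 ± 0.27) rose. Yap1 (0.13 ± 0.13) and its partner Tead1 (0.36 ± 0.15) were not called, whereas Tead2 rose (log2 change 4.76 ± 0.57).

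In the EGF family 4 of 20 rose and 3 fell, with a median of -0.03 that became 0.41 with library size as the only scaling. The ligands Tgfa, at 0.731, 1.64 and 2.40 CPM at day 10 against 0.2, 0.305 and 0.418 CPM in contralateral kidneys (log2 change 2.29 ± 0.29, edgeR adjusted p = 9.96e-07), Areg (3.57 ± 0.84) and Nrg1 (1.4 ± 0.19) rose, Areg with overlap. Egf itself, a product of the loop and the distal tubule, fell to 0.775, 2.45 and 3.10 CPM at day 10 against 4.37, 15.7 and 22.7 CPM in contralateral kidneys (log2 change -2.63 ± 0.36). The feedback inhibitor Errfi1 fell to 131, 205 and 215 CPM at day 10 against 349, 541 and 774 CPM in contralateral kidneys (log2 change -1.63 ± 0.16). The receptors Egfr (0.0045 ± 0.17), Erbb2 (0.06 ± 0.19) and Erbb3 (-0.19 ± 0.30) and the ligand Hbegf (0.03 ± 0.26) were not called.

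The Wnt list had 12 of the 34 members tested of 45 risen and 2 fallen (median 0.38). The ligands Wnt7b, at 0.495, 1.94 and 4.59 CPM at day 10 against 0, 0 and 0.381 CPM in contralateral kidneys (log2 change 4.58 ± 0.66, edgeR adjusted p = 5.63e-06), and Wnt4 (3.17 ± 0.60) rose, as did the effectors Tcf7 (4.58 ± 0.44) and Tcf7l1 (2.54 ± 0.21). Notum, a secreted enzyme that inactivates Wnt proteins, fell to 0.072, 0.366 and 1.66 CPM at day 10 against 1.75, 3.69 and 4.67 CPM in contralateral kidneys (log2 change -2.998 ± 0.44). Axin2 (0.36 ± 0.62), the usual target gene of the beta-catenin arm, was not called. The Notch list had 9 of the 21 members tested of 26 risen and 2 fallen (median 0.84). The ligands Jag1 (2.74 ± 0.57) and Dll4 (2.91 ± 0.44) and the target Hes1 (1.69 ± 0.30) rose, and Heyl, a target, stood at 5.17, 9.57 and 16.8 CPM at day 10 against 0.181, 0.229 and 0.558 CPM in contralateral kidneys (log2 change 5.13 ± 0.34). The receptors Notch1 (0.26 ± 0.34) and Notch2 (0.88 ± 0.82) were not called and Notch3 rose (log2 change 1.94 ± 0.49). Heyl and Notch3 are also well known from pericytes, whose markers were higher as given above, and the part of those cells was not tested.

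Stress lists were not uniformly higher. Targets of NRF2 and glutathione genes had 4 of 35 risen and 6 fallen, with a median of -0.27 that became 0.18 with library size as the only scaling. Ephx1, the microsomal epoxide hydrolase, stood at 21.3, 37.3 and 66.8 CPM at day 10 against 1.99, 3.74 and 19.9 CPM in contralateral kidneys (log2 change 2.56 ± 0.31, edgeR adjusted p = 8.69e-07), and the exporter Abcc1 at 1.59, 3.50 and 5.20 CPM at day 10 against 0, 0.463 and 1.08 CPM in contralateral kidneys (log2 change 2.63 ± 0.41). Neither overlapped. Sod2, the mitochondrial superoxide dismutase, fell to 252, 289 and 556 CPM at day 10 against 705, 901 and 1152 CPM in contralateral kidneys (log2 change -1.51 ± 0.16), and Osgin1 (-1.37 ± 0.25) and Gsr (-1.31 ± 0.17) fell as well. Hmox1 (0.91 ± 0.21), Gclc (-0.70 ± 0.21) and Nfe2l2 (0.45 ± 0.16) were not called. The hypoxia list had 4 of 25 risen and 5 fallen, with a median of -0.35 that became 0.07 with library size as the only scaling. Vegfa, the endothelial growth factor, fell to 3.05, 4.84 and 8.13 CPM at day 10 against 9.75, 11.7 and 18.9 CPM in contralateral kidneys (log2 change -1.35 ± 0.23), and the carbonic anhydrase Car12 fell to 15.2, 28.5 and 44.1 CPM at day 10 against 79.2, 88.3 and 171 CPM in contralateral kidneys (log2 change -2.01 ± 0.26). Lox (3.26 ± 0.33), which crosslinks collagen, and Ddit4 (2.24 ± 0.26) rose. Lysosomal genes had 4 of 41 risen and 6 fallen, with a median of -0.09 that became 0.31 with library size as the only scaling. The protease Ctsc, which activates enzymes of leukocyte granules, stood at 6.02, 7.48 and 12.7 CPM at day 10 against 0.534, 0.895 and 1.65 CPM in contralateral kidneys (log2 change 3.15 ± 0.22, edgeR adjusted p = 2.15e-10), and the sulfatase Arsb fell to 5.06, 8.82 and 13.2 CPM at day 10 against 21.4, 33 and 47.7 CPM in contralateral kidneys (log2 change -2.02 ± 0.18).

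Cell death genes rose in 18 of 30 members and fell in none (median 1.43). Inflammatory caspases and gasdermin D act in pyroptosis, a form of cell death with membrane pores. Gsdmd, gasdermin D, stood at 12.7, 17.4 and 23.6 CPM at day 10 against 0.227, 0.381 and 0.514 CPM in contralateral kidneys (log2 change 5.60 ± 0.20, edgeR adjusted p = 1.51e-14). Casp12 stood at 3.35, 5.11 and 8.51 CPM at day 10 against 0, 0.0568 and 0.241 CPM in contralateral kidneys (log2 change 5.90 ± 0.40) and Casp4 at 2.04, 8.46 and 20.2 CPM at day 10 against 0.0497, 0.14 and 0.762 CPM in contralateral kidneys (log2 change 5.17 ± 0.55). All were without overlap. The necroptosis pair Ripk3 (4.18 ± 0.31) and Mlkl (4.43 ± 0.23) rose. The initiator caspase Casp8 (0.49 ± 0.16), Bax (0.45 ± 0.17) and the survival gene Bcl2 (0.01 ± 0.16) were not called. Many inflammatory members are also expressed by macrophages, and the part of those cells was not tested.

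Class I presentation and the immunoproteasome rose in 11 of 22 members and fell in none (median 0.99). The 3 inducible proteasome subunits went first: Psmb8 stood at 44.9, 95 and 212 CPM at day 10 against 0.604, 2.13 and 7.06 CPM in contralateral kidneys (log2 change 5.29 ± 0.53, edgeR adjusted p = 1.51e-07), Psmb9 at 14, 26.6 and 39.7 CPM at day 10 against 0.418, 1.81 and 3.63 CPM in contralateral kidneys (log2 change 3.80 ± 0.37) and Psmb10 at 117, 169 and 270.5 CPM at day 10 against 8.18, 13.9 and 20.4 CPM in contralateral kidneys (log2 change 3.62 ± 0.25). In none of them did the states overlap. The constitutive counterparts Psmb5 (-0.10 ± 0.29), Psmb6 (-0.03 ± 0.19) and Psmb7 (-0.48 ± 0.14) were not called. The peptide transporter Tap1 (3.18 ± 0.28), the class I regulator Nlrc5 (3.53 ± 0.57) and B2m, at 982, 1292 and 1884 CPM at day 10 against 335, 478 and 744 CPM in contralateral kidneys, rose. Class II genes were read beside them. H2-Ab1, a class II chain, stood at 268, 553 and 1337 CPM at day 10 against 15.7, 19.7 and 46.5 CPM in contralateral kidneys (log2 change 4.74 ± 0.42), and Ciita, the class II regulator, at 6.87, 13.1 and 25.4 CPM at day 10 against 0.61, 0.977 and 2.93 CPM in contralateral kidneys (log2 change 3.57 ± 0.37). Adgre1, which encodes the macrophage marker F4/80, stood at 0.55, 1.66 and 2.80 CPM at day 10 against 0.0602, 0.154 and 0.229 CPM in contralateral kidneys (log2 change 3.53 ± 0.40) in the same libraries. The part of macrophages in the class II levels was not tested.

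Acute phase and plasma proteins rose in 20 of the 25 members tested of 31 and fell in 3 (median 3.62). Ceruloplasmin, Cp, stood at 202, 291 and 648 CPM at day 10 against 2.83, 4.00 and 9.83 CPM in contralateral kidneys (log2 change 6.26 ± 0.29, edgeR adjusted p = 4.72e-13). The endotoxin carrier Lbp stood at 4.58, 8.08 and 28.9 CPM at day 10 against 0.0465, 0.152 and 0.308 CPM in contralateral kidneys (log2 change 6.14 ± 0.35), and complement component C3 at 258, 435 and 802 CPM at day 10 against 4.39, 7.79 and 9.99 CPM in contralateral kidneys (log2 change 5.9998 ± 0.23). No overlap was seen in any of them. Fgb (4.28 ± 0.57), Fga (3.19 ± 0.42) and Fgg (3.34 ± 0.41), the chains of fibrinogen, rose, as did haptoglobin, Hp (4.69 ± 0.82), and Saa1 (5.53 ± 1.08). The fallen ones were Ttr, Alb and Apob (-2.13 ± 0.30), the carriers of thyroxine, of many small molecules and of lipid. Cfb (-0.22 ± 0.33) and transferrin, Trf (-0.07 ± 0.40), were not called.

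The cell cycle list had 15 of 36 risen and 2 fallen (median 0.76). The inhibitor Cdkn2b stood at 2.03, 5.14 and 8.53 CPM at day 10 against 0, 0.248 and 1.07 CPM in contralateral kidneys (log2 change 4.12 ± 0.46, edgeR adjusted p = 2.18e-07) and the replication licensing factor Mcm3 at 5.83, 11.3 and 16.6 CPM at day 10 against 1.74, 2.07 and 5.18 CPM in contralateral kidneys (log2 change 2.05 ± 0.21), both without overlap. The inhibitor Cdkn1a (1.58 ± 0.31) and the cyclin Ccnd2 (1.74 ± 0.25) rose, while the cyclin Ccnd1 fell to 30.0, 90.8 and 218 CPM at day 10 against 152, 340.4 and 381 CPM in contralateral kidneys (log2 change -1.63 ± 0.35) with overlap. The proliferation marker Mki67 (0.14 ± 0.48), Pcna (0.43 ± 0.12) and the mitotic cyclin Ccnb1 (0.25 ± 0.38) were not called. By sex 7 members rose in males and 13 in females, a difference that was not tested as a list.

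Among genes of the translation machinery itself most were not called. Of 81 cytosolic ribosomal protein genes 2 rose and 1 fell, and their median of 0.41 became 0.82 with library size as the only scaling, where 25 rose. Rpl22l1, an alternative form of a large subunit protein, stood at 43.2, 58.9 and 69.1 CPM at day 10 against 17.8, 22.6 and 38.7 CPM in contralateral kidneys (log2 change 1.27 ± 0.18, edgeR adjusted p = 6.22e-06), without overlap. Of 45 translation factors 6 rose and 2 fell (median 0.21). Eif4e3, an atypical cap-binding protein, stood at 30.4, 39.8 and 47.7 CPM at day 10 against 2.28, 3.03 and 4.19 CPM in contralateral kidneys (log2 change 3.71 ± 0.16), and Eif4ebp1, which holds the cap-binding protein back, at 57.0, 101 and 184 CPM at day 10 against 10.1, 20.7 and 27.9 CPM in contralateral kidneys (log2 change 2.48 ± 0.28). The cap-binding protein Eif4e (-0.14 ± 0.13) and the elongation factor Eef2 (0.29 ± 0.19) were not called.

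The sexes were then taken apart. In males 3900 genes (26.1%) and in females 4566 genes (30.6%) changed, of which 3221 changed in the same direction in both and 4 in opposite directions. The difference between the changes, female minus male, passed the same thresholds for 31 genes (0.208%), 24 of them positive and 7 negative, and 900 genes had an unadjusted p under 0.05. The count was 15 without female day 10 replicate 3, 17 without male day 10 replicate 2 or female contralateral replicate 2, 18 without male contralateral replicate 3 and 19 without female contralateral replicate 3. Ctxn3, cortexin 3, had 4.10 to 14.7 CPM in day 10 females against 0.114 to 1.07 CPM in contralateral females. Its male libraries had 3.36 to 27.2 CPM in day 10 males against 16.2 to 159.8 CPM in contralateral males. The change was 4.53 ± 1.04 in females, without overlap, and -2.27 ± 0.70 in males, with overlap (difference 6.80 ± 1.25, edgeR adjusted p = 0.0308).

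Cyp4a12a, a cytochrome of fatty acid hydroxylation that androgens induce, had 20.1 to 93.9 CPM in day 10 females against 4.26 to 6.2 CPM in contralateral females and 65.2 to 124 CPM in day 10 males against 183 to 467 CPM in contralateral males. It was thus higher at day 10 in females and lower in males (difference 4.73 ± 0.59, edgeR adjusted p = 0.000485), and close copies of this gene leave its read assignment uncertain. Hsd11b1, which regenerates glucocorticoid, was likewise higher at day 10 in females, with 34.3 to 132 CPM in day 10 females against 5.80 to 13.1 CPM in contralateral females and 24.3 to 89.4 CPM in day 10 males against 65.9 to 342 CPM in contralateral males (difference 4.38 ± 0.78, edgeR adjusted p = 0.0202). The male libraries of Hsd11b1 overlapped. In both genes the contralateral levels of males exceeded those of females.

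Further genes passed the test of the difference. Slc37a1, a sugar phosphate carrier, had 4.46 to 7.52 CPM in day 10 females against 0 to 0.0762 CPM in contralateral females and 2.02 to 5.91 CPM in day 10 males against 0.4 to 3.03 CPM in contralateral males (difference 5.85 ± 0.95, edgeR adjusted p = 0.0053). Contralateral females held almost no counts of Slc37a1, so the size of its difference depends on the prior count of the fit. Il34, a second ligand of the macrophage growth factor receptor, had 101 to 166 CPM in day 10 females against 2.84 to 3.25 CPM in contralateral females and 143 to 392 CPM in day 10 males against 35.5 to 129 CPM in contralateral males (difference 3.74 ± 0.48, edgeR adjusted p = 0.000485). Cpe, carboxypeptidase E, had 146 to 238 CPM in day 10 females against 1.65 to 3.66 CPM in contralateral females and 204 to 320.4 CPM in day 10 males against 14 to 59.9 CPM in contralateral males (difference 3.46 ± 0.52, edgeR adjusted p = 0.0026). These 3 were lower in contralateral females than in contralateral males, without overlap, whereas their day 10 libraries of the sexes overlapped. Gm15895 (4.50 ± 0.47, edgeR adjusted p = 6.95e-05), Pear1 (3.43 ± 0.67, edgeR adjusted p = 0.0309) and Ly6e (2.89 ± 0.47, edgeR adjusted p = 0.00531) had positive differences too. Utrn, utrophin, had 7.39 to 12.9 CPM in day 10 females against 5.00 to 6.2 CPM in contralateral females and 6.71 to 13.6 CPM in day 10 males against 0.617 to 1.47 CPM in contralateral males, so that its rise was larger in males (difference -2.32 ± 0.43, edgeR adjusted p = 0.0243). Kynu, kynureninase, had 13.3 to 22.1 CPM in day 10 females against 61.5 to 119 CPM in contralateral females and 3.13 to 6.72 CPM in day 10 males against 2.16 to 5.34 CPM in contralateral males (difference -2.65 ± 0.42, edgeR adjusted p = 0.00406). Baat (-3.03 ± 0.58, edgeR adjusted p = 0.0282) and the carnosinase Cndp1 (-1.56 ± 0.32, edgeR adjusted p = 0.0444) had negative differences as well. With each of the 14 libraries left out in turn, Slc37a1, Cyp4a12a, Gm15895, Il34, Cpe, Ly6e and Kynu kept this call each time. Within a side of the Lars2 split some groups of sex and state were not replicated, so only sizes of the difference are given. Low Lars2 libraries gave 5.11 for Cyp4a12a, 4.72 for Gm15895, 4.23 for Il34 and 3.77 for Cpe. High Lars2 libraries gave 3.70, 4.29, 3.39 and 2.98 in that order. All 13 named genes kept their sign on both sides. With the clock score described below as a covariate Slc37a1 (edgeR adjusted p = 0.103) and Kynu (edgeR adjusted p = 0.0722) were not called. Under that covariate Ctxn3, Hsd11b1 and Pear1 (edgeR adjusted p = 0.15 each), Utrn (edgeR adjusted p = 0.136) and Cndp1 (edgeR adjusted p = 0.171) also lost the call. Over the left-out libraries Utrn lost it in 4 of the 14 cases (-2.58 to -2.04), Hsd11b1 in 5 (3.56 to 4.75), Ctxn3 in 6 (5.64 to 8.51), Baat in 6 (-3.29 to -2.57), Pear1 in 8 (2.89 to 3.75) and Cndp1 in 11 (-1.74 to -1.35), always at the same sign.

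**Figure D3:**
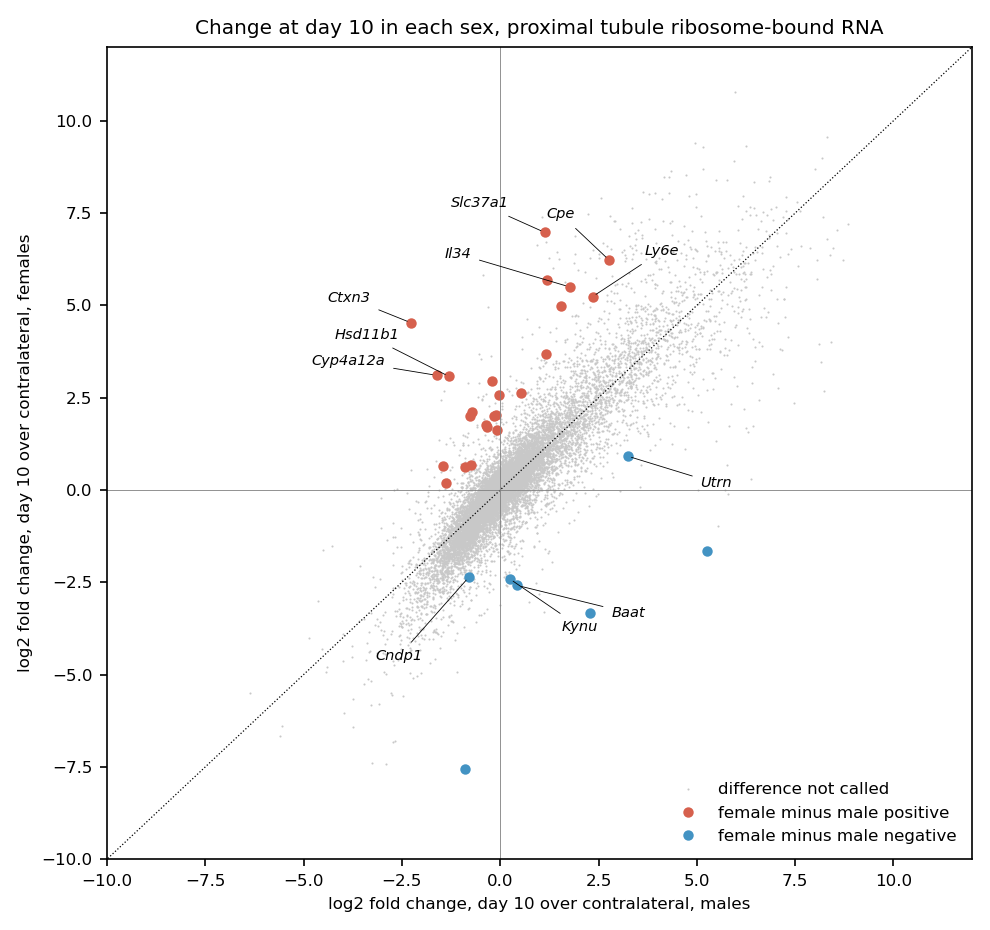
Log2 change, day 10 over contralateral, in females (vertical) against males (horizontal) for 14932 genes, with the line of equal change dotted. The 31 genes whose difference passed the test are coloured, 24 with a positive female minus male difference (red) and 7 with a negative difference (blue).

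Time of day is not in the labels, and genes of the circadian clock were therefore read. A clock score, the mean log2 CPM of genes that peak with Arntl less the mean of genes that peak with Per2, lay from -1.68 to -0.41 in day 10 females and from -3.59 to -2.10 in contralateral females, and from -0.50 to 0.27 in day 10 males and from -2.13 to 0.35 in contralateral males. The states were apart in females, whereas the day 10 males lay within the range of the contralateral males, and no test was run on the score. Of 10 genes of the Per arm 4 fell, and none of 5 genes of the Arntl arm was called. The clock-controlled factor Hlf, of the Per arm, stood at 20.2, 28.5 and 51.1 CPM at day 10 against 114, 207 and 369 CPM in contralateral kidneys (log2 change -2.94 ± 0.23, edgeR adjusted p = 1.3e-09). The part of the clock in the sex difference was not tested beyond the covariate above.

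Between day 10 and day 5 of the same fraction 66 genes (0.442%) passed the thresholds, of which 63 were higher and 3 lower at day 10. The count was 38 without male day 10 replicate 3 and 23 without female day 10 replicate 3. Lcn2 averaged 48.1 ± 32 CPM at day 10 and 9.15 ± 0.78 CPM at day 5 in males, and 33 ± 19.3 CPM at day 10 and 14.1 ± 5.46 CPM at day 5 in females (log2 difference 1.81 ± 0.32, edgeR adjusted p = 0.01). Hk1 averaged 12.9 ± 4.56 CPM at day 10 and 6.12 ± 1.26 CPM at day 5 in males, and 15.2 ± 3.40 CPM at day 10 and 6.52 ± 0.353 CPM at day 5 in females (log2 difference 1.15 ± 0.18, edgeR adjusted p = 0.00517). SD are over 4 males and 3 females, and in both genes the day 10 mean was the higher in both sexes. Lcn2 overlapped between the days, as female day 5 replicate 3 had 19.7 CPM, above the lowest day 10 library. Both genes kept the call with any of the 7 day 10 libraries left out, and no day 5 library was left out. Bst1 (2.21 ± 0.46, edgeR adjusted p = 0.0318), Cldn3 (1.45 ± 0.32, edgeR adjusted p = 0.0455), Casp12 (1.42 ± 0.28, edgeR adjusted p = 0.0232), Ltbp2 (1.85 ± 0.39, edgeR adjusted p = 0.0359), Medag (1.11 ± 0.24, edgeR adjusted p = 0.0396) and the pericyte gene Rgs5 (1.24 ± 0.27, edgeR adjusted p = 0.0376) were also higher at day 10, together with the macrophage genes Ms4a7 (1.88 ± 0.37, edgeR adjusted p = 0.0196) and Lyz2 (1.06 ± 0.21, edgeR adjusted p = 0.0212). With a day 10 library left out, Ms4a7 lost the call in 1 case (1.73 to 2.06), Casp12 in 2 (1.34 to 1.49), Lyz2 in 2 (0.89 to 1.14), Bst1 in 3 (1.94 to 2.33), Ltbp2 in 3 (1.4 to 2.05), Cldn3 in 4 (1.08 to 1.58), Medag in 5 (0.98 to 1.18) and Rgs5 in 5 (1.14 to 1.34). The part of macrophages in these differences was not tested. Spp1 (-0.85 ± 0.24, edgeR adjusted p = 0.124), Havcr1 (-0.75 ± 0.20, edgeR adjusted p = 0.101), Vcam1 (-0.36 ± 0.17, edgeR adjusted p = 0.477), Gatm (0.05 ± 0.29, edgeR adjusted p = 0.981) and Slc34a1 (0.15 ± 0.22, edgeR adjusted p = 0.893) did not pass.

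Total kidney RNA of the same states was used to ask which changes differed between the fractions. The difference of the changes, PT minus Total, passed for 985 of 17110 genes (5.76%). It was positive for 801 and negative for 184, and a positive value can also be a smaller fall in PT. Of the genes that rose in PT, 665 passed with a larger and 27 with a smaller log2 change in PT than in Total, and of those that fell 13 passed with a positive and 59 with a negative difference. Pkm rose in PT as given above, while in Total it averaged 172 ± 31.9 CPM at day 10 and 192 ± 43.4 CPM in contralateral kidneys (SD, n = 7 each), a log2 change of -0.19 (difference 3.02 ± 0.28, edgeR adjusted p = 2.95e-10). Trpm6, a magnesium channel of the distal tubule, stood in PT at 2.99, 4.84 and 8.56 CPM at day 10 against 0.298, 0.625 and 1.20 CPM in contralateral kidneys (log2 change 3.07 ± 0.31). In Total it averaged 7.71 ± 2.40 CPM at day 10 and 13.6 ± 5.61 CPM in contralateral kidneys (SD, n = 7 each), a log2 change of -0.81 (difference 3.91 ± 0.37, edgeR adjusted p = 5.29e-10).

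Hk1 had a log2 change of 1.87 in PT and -0.22 in Total (difference 2.14 ± 0.25, edgeR adjusted p = 6.37e-08), and Eif4e3 of 3.71 in PT and 0.84 in Total (difference 2.91 ± 0.20, edgeR adjusted p = 5.06e-13). The rises of Rgs4 (5.08 ± 0.60, edgeR adjusted p = 1.46e-07), Mapk11 (4.44 ± 0.38, edgeR adjusted p = 5.51e-11), Traf1 (4.15 ± 0.34, edgeR adjusted p = 1.58e-11) and Anxa2 (2.71 ± 0.24, edgeR adjusted p = 8.25e-11) were also larger in PT by the difference shown. Lcn2 went the other way, with a log2 change of 6.04 in PT and 7.72 in Total (difference -1.65 ± 0.51, edgeR adjusted p = 0.038), and averaged 270.3 ± 116 CPM at day 10 and 1.31 ± 0.521 CPM in contralateral kidneys in Total (SD, n = 7 each). Lox (-1.89 ± 0.53, edgeR adjusted p = 0.0193) and Tcf21 (-1.47 ± 0.29, edgeR adjusted p = 0.000429), a factor of fibroblasts and podocytes, also rose less in PT. With a PT library left out Lcn2 lost this call in 6 of 14 cases (-1.90 to -1.44) and Lox in 2 (-2.09 to -1.69). Of the injury genes 16 passed with a positive and 2 with a negative difference, and of the developmental factors 10 passed with a positive one. Of the S1 and S2 carriers 2 passed, both with a positive difference.

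**Figure D4:**
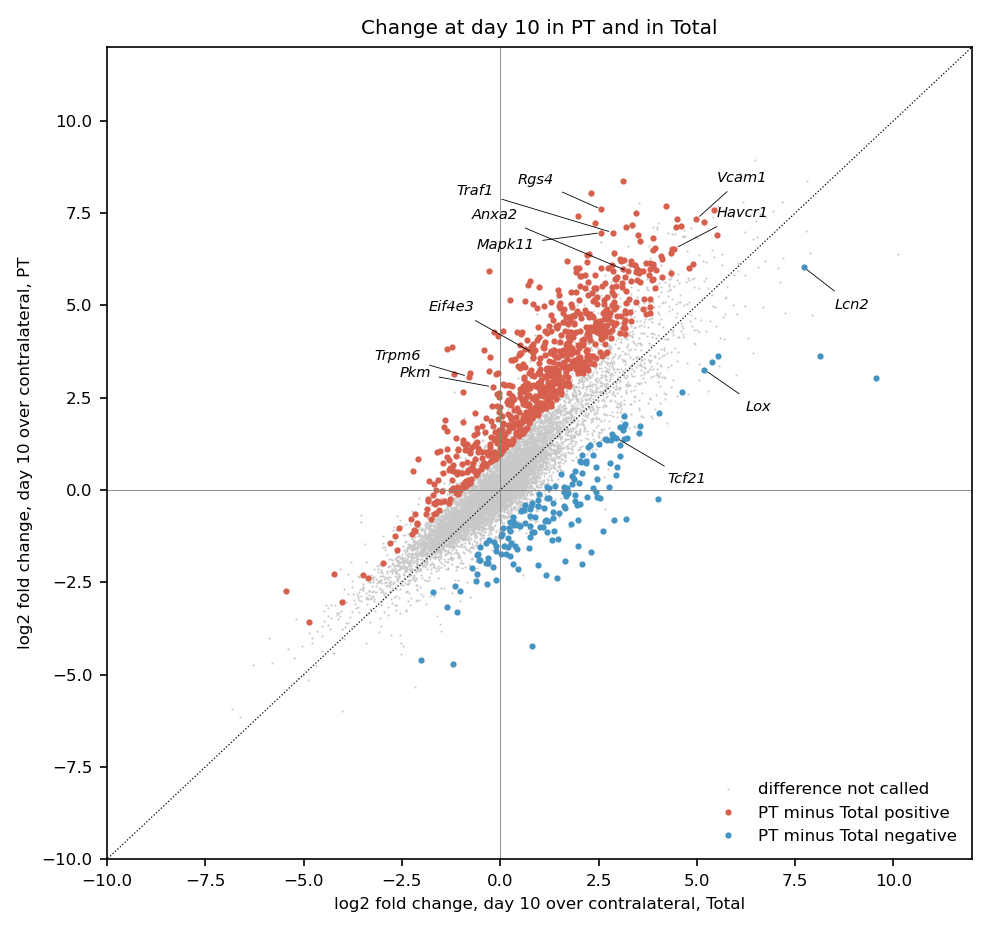
Log2 change, day 10 over contralateral, in PT (vertical) against Total (horizontal), with the line of equal change dotted. Coloured points passed the test of the difference, 801 with PT minus Total positive (red) and 184 with it negative (blue).

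Markers of other cells were present in the PT libraries of both states. Counts here are over the members that passed the filter on low counts, which a gene near 0 in contralateral kidneys passes only if it is higher in obstructed kidneys. Macrophage genes rose in 15 of the 16 members tested of 17 (median 3.50), with Csf1r the member not called (log2 change 0.79 ± 0.20), and Lyz2 stood at 15.6, 26.3 and 48.6 CPM at day 10 against 0.93, 1.45 and 2.06 CPM in contralateral kidneys (log2 change 4.35 ± 0.25, edgeR adjusted p = 1.18e-11). Fibroblast genes rose in 13 of the 14 members tested of 16 (median 3.35) and Col1a1, the main collagen chain, stood at 8.21, 11.9 and 16.4 CPM at day 10 against 0.558, 0.925 and 1.53 CPM in contralateral kidneys (log2 change 3.73 ± 0.26). Pericyte and smooth muscle genes rose in 8 of 9 members (median 2.27). Of 17 lymphocyte genes 11 were too low to test, and the list had a summed level of 11.1 to 47.4 CPM at day 10 against 1.49 to 5.4 CPM in contralateral kidneys. Neutrophil genes were too low to test, with a summed level of 0.258 to 1.95 CPM at day 10 against 0 to 0.411 CPM in contralateral kidneys. Endothelial genes rose in 8 of the 13 members tested of 16 and summed to 26.9 to 47.0 CPM at day 10 against 12.2 to 28.5 CPM in contralateral kidneys. The summed levels of macrophage, fibroblast and pericyte genes did not overlap between the states, and those of endothelial genes did.

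Podocyte genes rose in 3 of 12 members, with summed levels of 68.1 to 129 CPM at day 10 against 49.5 to 81.5 CPM in contralateral kidneys. Wt1, the podocyte and developmental factor, stood at 9.28, 16.7 and 27.7 CPM at day 10 against 1.14, 2.27 and 4.19 CPM in contralateral kidneys (log2 change 2.80 ± 0.30), whereas the slit diaphragm gene Nphs1 was not called, at 0.618, 1.11 and 1.62 CPM at day 10 against 1.14, 1.53 and 2.36 CPM in contralateral kidneys (log2 change -0.45 ± 0.27). Loop and distal tubule genes rose in 1 and fell in 5 of 13 members and summed to 51.8 to 158 CPM at day 10 against 138 to 279 CPM in contralateral kidneys. Calb1, calbindin, stood at 2.99, 7.27 and 13.6 CPM at day 10 against 63.1, 80.6 and 119 CPM in contralateral kidneys (log2 change -3.57 ± 0.30). Collecting duct genes rose in 1 and fell in 7 of 11 members and summed to 15.6 to 37.7 CPM at day 10 against 73.3 to 106 CPM in contralateral kidneys. The water channel Aqp3 stood at 1.18, 5.32 and 12.4 CPM at day 10 against 31.9, 52.6 and 71.5 CPM in contralateral kidneys (log2 change -3.39 ± 0.32). Genes of red cells rose in 3 of 4 members and summed to 2.00 to 10.1 CPM at day 10 against 0.79 to 6.54 CPM in contralateral kidneys, with overlap. Among the 3, Hba-a1 was not called without female day 10 replicate 3 (1.24, adjusted p = 0.0801 by edgeR) and Hbb-bt was not called in 6 of 14 such cases, and within the libraries of low Lars2 the log2 changes of Hba-a1 (-0.33), Hbb-bs (-0.40) and Hbb-bt (-0.66) were negative. Of 10 urothelial genes 1 was tested, Trp63 (log2 change 1.87 ± 0.67), which was not called without female contralateral replicate 1 (1.63, adjusted p = 0.0551 by edgeR) or female day 10 replicate 2 (0.98, adjusted p = 0.289 by edgeR).

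**Figure D5:**
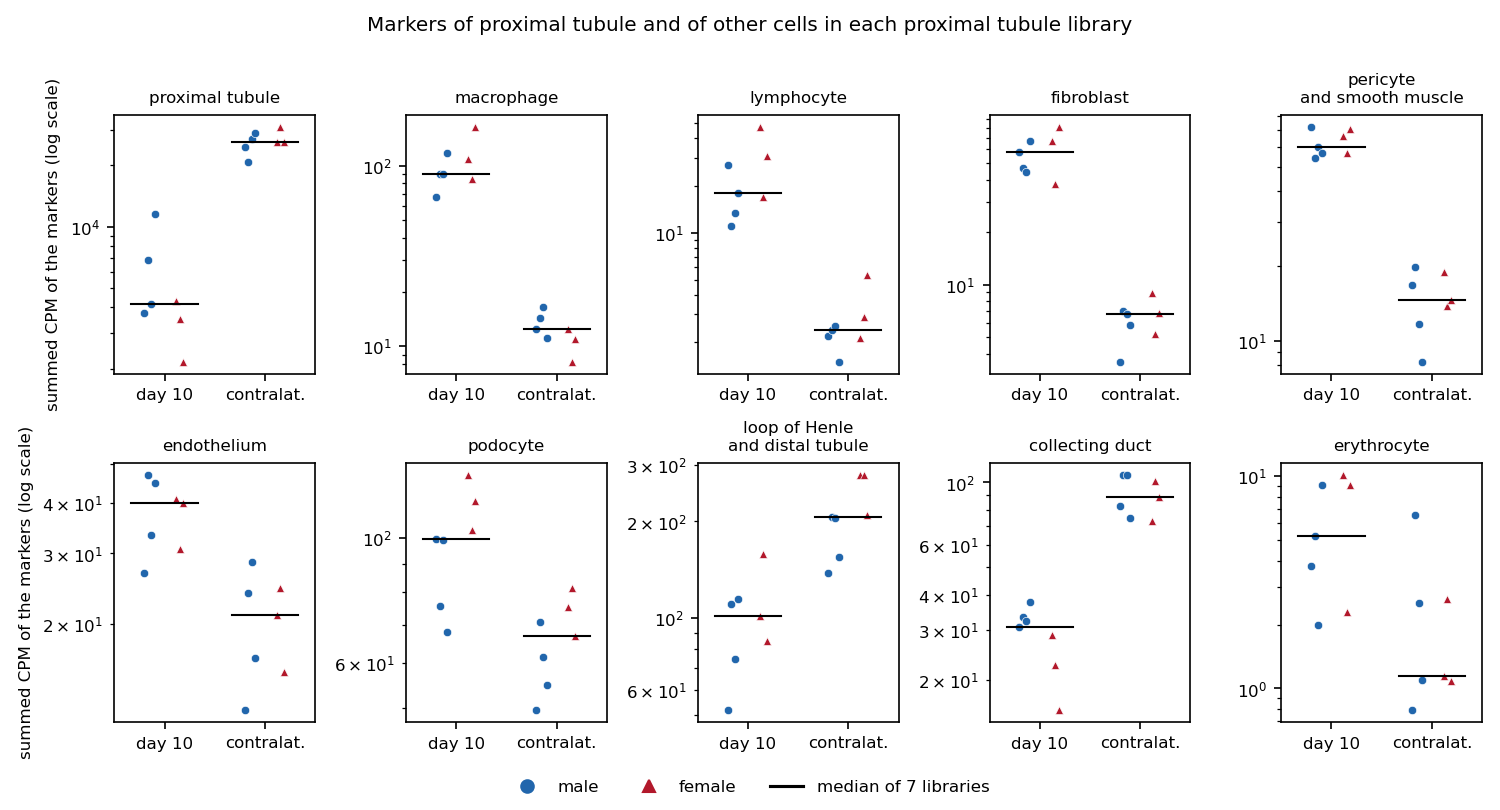
Summed TMM-scaled CPM, on log axes, of the markers of the proximal tubule and of 9 other cell types in each PT library, with day 10 left of contralateral. Circles are males, triangles females and bars the medians of 7. The medians of proximal tubule, loop and distal tubule and collecting duct markers lie lower at day 10. Those of macrophage, lymphocyte, fibroblast, pericyte, endothelial, podocyte and red cell markers lie higher. The states overlap for loop and distal tubule, endothelial, podocyte and red cell markers.

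The libraries of day 10 also varied more among themselves. The median over genes of the SD of log2 level within a sex was 0.375 at day 10 and 0.322 in contralateral kidneys, and it was larger at day 10 for 60.3% of genes. An offset of 0.5 CPM was added before the log, which narrows the SD of genes near 0 in a state. Its part in the difference was not tested. At day 10, libraries of a sex differed more across the Lars2 split than within a side of it. The sides were set from Lars2 in these same libraries, so this is a description and no test. The part of the reads of Lars2 itself in it was not tested. Between day 10 libraries of a sex, chi-square per gene was 63.6 to 79.2 in 3 pairs on the same side of the Lars2 split and 228 to 403 in 6 pairs across it, against 66.3 to 124 and 73.9 to 178 in contralateral pairs. Among genes of at least 50 CPM that varied most at day 10, Pea15a, a regulator of cell death signalling, stood at 149, 339.5 and 1061 CPM at day 10 against 7.997, 15.9 and 63.8 CPM in contralateral kidneys (log2 change 4.41 ± 0.57, edgeR adjusted p = 3.99e-06). Dnase1, the secreted nuclease of the kidney, stood at 34.7, 162 and 1009 CPM at day 10 against 1109, 1825 and 2546 CPM in contralateral kidneys (log2 change -2.98 ± 0.49), and Fgb at 31.4, 62.2 and 400 CPM at day 10 against 2.19, 4.80 and 10.4 CPM in contralateral kidneys. Though spread widely they did not overlap between the states. Gpc3 (4.38 ± 0.60), Map3k1 (3.10 ± 0.63) and Dpysl2 (3.10 ± 0.68) rose, and Inmt (-2.85 ± 0.70) and Rnase4 (-2.10 ± 0.49) fell with overlap. Cyp27b1, which activates vitamin D, stood at 22.7, 29.3 and 125 CPM at day 10 against 6.17, 8.28 and 23.7 CPM in contralateral kidneys (log2 change 2.35 ± 0.55), with overlap. Bok, a relative of Bcl2, rose (log2 change 3.64 ± 0.57), with 21.6 to 215 CPM in day 10 females against 0.569 to 4.50 CPM in contralateral females and 28.2 to 106 CPM in day 10 males against 7.36 to 30.3 CPM in contralateral males. By side of the Lars2 split, Map3k1 had 416 to 558 CPM in the 3 day 10 libraries of low Lars2 and 76.2 to 183 CPM in the 4 of high Lars2. Dpysl2, Cyp27b1, Bok and Rnase4 were apart between the sides too, the first pair higher at low Lars2 and the second pair higher at high Lars2, while Pea15a, Dnase1, Fgb, Gpc3 and Inmt overlapped. The part of Lars2 in these values was not tested. The labels do not say what the replicate numbers mean, and no day 10 library was left out of these values.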

How the data were processed

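The authors deposited whole-number counts per gene symbol and a table of RPKM for the same 42 libraries. STAR 2.0.4b and featureCounts 1.4.5 of the Subread package are named in the submitters' processing notes, and the genome build, the annotation and any use of strand in counting are not given in the sources used here, so that overlapping and antisense genes cannot be told apart. The deposited RPKM were used for per-length levels and for 2 alternatives only.

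From the counts, genes passing filterByExpr were fitted with edgeR 4.0.16 (quasi-likelihood, robust, TMM, R 4.3.3) over the 21 PT libraries with a mean per sex and state, and the comparison of fractions was fitted over all 42. The sexes were weighted equally, p-values were adjusted by Benjamini-Hochberg over all genes tested, and calls needed 2-fold. limma 3.58.1 and DESeq2 1.42.0 served as alternatives. The script was tested on simulated data. Between replicates, chi-square per gene was 63.6 to 402.6 over 18 pairs, so no library was a copy of another.

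The members and the gene lists were chosen with earlier results of these data known, and some of the lists come from an earlier session on these files. Named genes were the 10 largest rises and falls by CPM, the 15 by fitted log2 change (at least 5 CPM, no overlap), up to 3 called members per list and direction with those against the list's median, the genes of the sex difference, and the 10 of widest spread at day 10 (at least 50 CPM). Further list members and Hnf4a, Krt8, Krt18, Krt19, Lrp2, H2-Ab1, Ciita, C3, Ccl2, Il34, Adgre1, Col1a1, Nphs1 and Slc5a2 were chosen after their values were seen. Some genes that these rules pick are not reported here. Promoter windows are those of RefSeq on GRCm38.p6, matched by gene symbol with the first window of a symbol kept. Library depth was 13370922 to 43640760 counts, and counting intervals cover counting error only.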

Additional observations from a re-analysis of the deposited data

Results flagged for a closer look

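In male groups of 4 libraries, a library stood far from the other 3 in 20 of 240 groups tested (8.33%, where chance gives about 5%). In 4 of the 20 the other 3 libraries were at 0, so that a read or a few in 1 library set the flag by construction, and the share is not a measure against chance. Of the 20, 7 belonged to male day 10 replicate 4. It had 1175 CPM of Gatm, against 296.4 to 362.7 CPM in the other male day 10 libraries, and 51.1 CPM of Ttr, against 7.16 to 13.8 CPM. For the strongly fallen genes Fat2 (3.03 against 0.406 to 0.825 CPM), Gm13412 (1.27 against 0.143 to 0.33 CPM) and Gm11513 (0.155 against 0.0369 to 0.055 CPM) it also lay above the others, that is, nearer to the contralateral levels. Its Timp1 was the lowest (15.9 CPM against 20.8 to 21.8 CPM), while its Fst was the highest (3.91 CPM against 0.259 to 0.713 CPM).

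Male day 10 replicate 3 had 2163 CPM of Tmem176b, against 3565 to 3637 CPM in the others, and 182.7 CPM of Il1rn, against 68.0 to 79.5 CPM. Male day 10 replicate 2 had 105.6 CPM of Bok, against 28.2 to 35.7 CPM, and its cell cycle genes summed to 1329 CPM, against 1005 to 1032 CPM.

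Among contralateral males, replicate 3 had 2082 CPM of Tmem176b, against 1210 to 1335 CPM, 159.8 CPM of Ctxn3, against 16.2 to 37.1 CPM, and 341.7 CPM of Hsd11b1, against 65.9 to 110 CPM. Replicate 2 had 3.60 CPM of Krt20, against 1.13 to 1.53 CPM, 0.0667 CPM of Fst, against 0 in the others, and an actin cytoskeleton sum of 9635 CPM, against 5182 to 5686 CPM. Replicate 1 alone held reads of Anxa8 (0.14 CPM), Cxcl5 (0.093 CPM) and Hk2 (0.0465 CPM).

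The day 10 change differed between the sexes for 13 named genes by the test of the difference itself, edgeR's quasi-likelihood test with adjusted p-values given in the report. Female minus male, the log2 differences were 6.80 for Ctxn3, 5.85 for Slc37a1, 4.73 for Cyp4a12a, 4.50 for Gm15895, 4.38 for Hsd11b1, 3.74 for Il34, 3.46 for Cpe, 3.43 for Pear1 and 2.89 for Ly6e. They were -3.03 for Baat, -2.65 for Kynu, -2.32 for Utrn and -1.56 for Cndp1.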

How the results depend on the processing

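With edgeR, 2942 genes were higher and 1790 lower at day 10. Without a minimum fold the counts were 4429 and 3765, and with a filter of 5 CPM in 3 libraries (fewer genes tested) 1499 and 1190. They were 1550 and 503 with limma on log2(RPKM + 1) and 3072 and 816 with limma on log2(RPKM + 0.1). Library size as the only scaling gave 4290 higher and 888 lower. In females 2894 genes passed with the filter of 5 CPM and 2499 with limma on log2(RPKM + 1), against 4566. In males 2319 and 1727 did so, against 3900, and 5997 without a minimum fold. The sex and day 5 differences are not counted within the Lars2 sides, where some groups of sex and state were not replicated. The sex difference moved from 31 genes to 13 at an adjusted p of 0.01, 100 with DESeq2 and 13 with only the groups compared. It moved to 67 with Lars2 and 19 with the clock score as a covariate. Between day 10 and day 5 the 66 genes became 19 at an adjusted p of 0.01, 31 with the filter of 5 CPM and 192 with DESeq2. They became 27 with limma on log2(RPKM + 1), 107 with only the groups compared, and 181 and 30 with those covariates. For the fractions 985 genes became 645 at an adjusted p of 0.01 and 1525 with limma on log2(RPKM + 0.1). The causes were not tested.

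With each library left out, 2837 to 3073 genes were higher and 1726 to 1935 lower, 3546 to 4144 changed in males and 4086 to 4643 in females, and 15 to 39 passed for the sex difference, 23 to 93 against day 5 and 917 to 1041 for the fractions. Same-numbered libraries had deviations correlated above 0.1 in 3 of 7 pairs (-0.194 to 0.497), 3 of 7 correlated best with their own number, and the numbers were not taken as pairs. With a replicate block 2797 genes were higher and 1792 lower, 3683 changed in males and 4215 in females, 4 passed for the sex difference (Cyp4a12a, Gm15895 and Il34 among the named genes), 54 against day 5 and 1078 for the fractions.

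Of 317 named genes called at day 10, 106 lost the call under at least 1 alternative and 211 kept it under all that were run, the largest group of losses (83 genes) being with limma on log2(RPKM + 1), where the pseudocount shrinks low genes by construction. Negative under the low Lars2 libraries were Hba-a1 (-0.33), Hbb-bs (-0.40) and Hbb-bt (-0.66). DESeq2 gave no adjusted p for Fst. With library size as the only scaling the summed endothelial, neutrophil and urothelial markers no longer overlapped between the states. In promoter windows cut to the 250 bases before the start, NF-kB letters were in 2.13% of genes that rose and 0.868% of those that fell. The planned split of libraries at the largest gap in Lars2 was not run, since it left a side without both states and sexes, and the split at the second largest gap was chosen after seeing the data. Genes under a few counts per library limit the size of a fold, and the labels leave the independence of replicates unknown.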
